A study of Mus musculus with 79 samples.

Results

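Genes of the NRF2 oxidative stress response and of heme breakdown, 10 of the 23361 genes in the count tables, were followed across macrophages, Schwann cells and the distal stump of repaired mouse nerves. They were taken by symbol: Slc7a11, Gclm, Gclc, Hmox1, Nqo1, Srxn1, Txnrd1, Osgin1, Prdx1 and Gsr, and all 10 are listed in each of the 3 tables. NRF2, encoded by Nfe2l2, is a transcription factor that KEAP1 normally marks for degradation. Oxidants and electrophiles release it, and it then pairs with small MAF proteins at antioxidant response elements, which BACH1 occupies when heme is scarce. Macrophages also meet heme when they clear red cells after injury, and HMOX1 splits it into biliverdin, carbon monoxide and iron.

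The animals were S100β-eGFP mice, in which GFP is driven by the human S100β promoter, and the same nerve graft was made in all of them, a freshly cut common peroneal branch joined to the tibial stump through a conduit. In the delayed group the tibial stump had been cut 8 weeks before the graft, whereas the immediate group had a sham opening at that time and the tibial nerve was cut at grafting. Macrophages (F4/80+ CD14+ CD16/32+ CD11b+) and Schwann cells (GFP+ and negative for those markers) were sorted from the bridge of single animals 5 and 14 days after repair, and the tibial stump was taken at day 5 only. The labels give sex, day and repair timing but no age. Macrophages were sequenced from 9 delayed and 8 immediate animals on day 5, and from 7 and 8 on day 14. The Schwann cells came from 9 and 7 animals, then 7 and 8, and the stumps from 9 and 7. The 79 libraries came from 32 animals, of which 31 gave both sorted cell types. Replicates 1 to 4 of each group are males and replicates 5 to 9 females, so sex and any order of handling cannot be told apart.

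A macrophage library held 14928745 to 28499407 counts, a Schwann cell library 11614940 to 30796823 and a stump library 3898778 to 9212709. Macrophage libraries held 8 macrophage markers whose CPM, counts scaled to a common library total, summed to group medians of 12120 to 14914, and S100b and Sox10 were at a median of 0 CPM in them. The 8 dendritic cell markers also gave signal there, with medians of 2292 to 2563 CPM at day 5 and 8407 to 9426 CPM at day 14, and at most 16281 CPM. The libraries labelled Schwann cells went partly against their label. Their 8 Schwann cell markers summed to group medians of only 88.6 to 1370 CPM, S100b had medians of 0.527 to 13.3 CPM, and the dendritic cell markers summed to medians of 25595 to 29289 CPM, with 16366 CPM in the lowest library. They are therefore called the Schwann cell fraction. Sorted cells were amplified and stump RNA was rRNA-depleted, so the stump is not set against sorted cells by a test. In these bulk samples fewer cells of a type and less RNA per cell cannot be told apart.

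Promoter windows (250 bases before to 50 after a transcription start, RefSeq, GRCm38.p6) were read for the antioxidant response element core TGACNNNGC on both strands. Of the 10 genes, 7 had a window, 9 windows in all, and 4 held the core, always on the opposite strand. Of 32851 windows of this length, 12.4% held it. The 4 stretches are shown, plus strand, because 2 of these genes, Srxn1 and Prdx1, carry the stump result and the other 2 are genes of glutathione and thioredoxin supply. Capitals mark the core, which reads TGACCTAGC in Srxn1, TGACGGTGC in Gclm, TGACTCAGC in Prdx1 and TGACAAAGC in Txnrd1 on its own strand.
Srxn1: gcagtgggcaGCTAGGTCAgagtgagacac
Gclm: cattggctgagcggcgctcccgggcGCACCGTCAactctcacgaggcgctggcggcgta
Prdx1: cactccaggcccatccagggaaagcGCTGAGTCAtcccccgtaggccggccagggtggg
Txnrd1: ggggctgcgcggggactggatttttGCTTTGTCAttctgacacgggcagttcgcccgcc
The Srxn1 stretch is chr2:152105542-152105571, with the core 28 to 36 bases after the start, in an exon. The Gclm stretch is chr3:122245398-122245456, with the core 134 to 126 bases before the start. The Prdx1 stretch is chr4:116685441-116685499, with the core 133 to 125 bases before the start. The Txnrd1 stretch is chr10:82859089-82859147, with the core 92 to 84 bases before the second of its 3 starts. Slc7a11, Nqo1, Osgin1 and the other 2 Txnrd1 windows did not contain these letters, and Hmox1, Gclc and Gsr had no window. A match is a description of letters only.

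On GRCm38 (GENCODE annotation) the glutathione genes lie on chromosome 3 (Slc7a11, 49892526 to 50443614; Gclm, 122245557 to 122270732), chromosome 9 (Gclc, 77754535 to 77794485) and chromosome 8 (Gsr, 33652523 to 33698163). Chromosome 8 also holds Hmox1 (75093621 to 75100589), Nqo1 (107388225 to 107403206) and Osgin1 (119434124 to 119446256). Srxn1 is on chromosome 2 (152105516 to 152111376), Txnrd1 on chromosome 10 (82833951 to 82897712) and Prdx1 on chromosome 4 (116685544 to 116700822).

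Per kilobase of exon, Hmox1 and Prdx1 led the order of the levels in all 10 groups. In macrophages at day 5 after immediate repair the medians were 2226 CPM per kb for Hmox1, 903 for Prdx1, a peroxide-reducing peroxiredoxin, and 251 for Srxn1, the sulfiredoxin that restores overoxidized peroxiredoxins. Txnrd1, the cytosolic thioredoxin reductase, followed at 175 CPM per kb, and Gsr, glutathione reductase, at 76.4. Gclc and Gclm, the catalytic and modifier subunits of the enzyme that begins glutathione synthesis, were at 54.4 and 40.4, and Slc7a11, the cystine importer, at 30.4. Osgin1, a growth-inhibiting stress gene, was at 15.4 and Nqo1, a quinone reductase, at 2.34 CPM per kb. The order was the same in the delayed group. In the Schwann cell fraction at day 14 after delayed repair Prdx1 led with 729 CPM per kb, Hmox1 followed with 624, and Nqo1 was at 34.3, next to Gclm at 34.1. In the stump after immediate repair Prdx1 was at 190 CPM per kb, Hmox1 at 81.4, Srxn1 at 42.0 and Gsr at 38.4, and after delayed repair Srxn1 was at 16.3, below Gsr at 35.3 and Txnrd1 at 19.2.

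**Figure D1:**
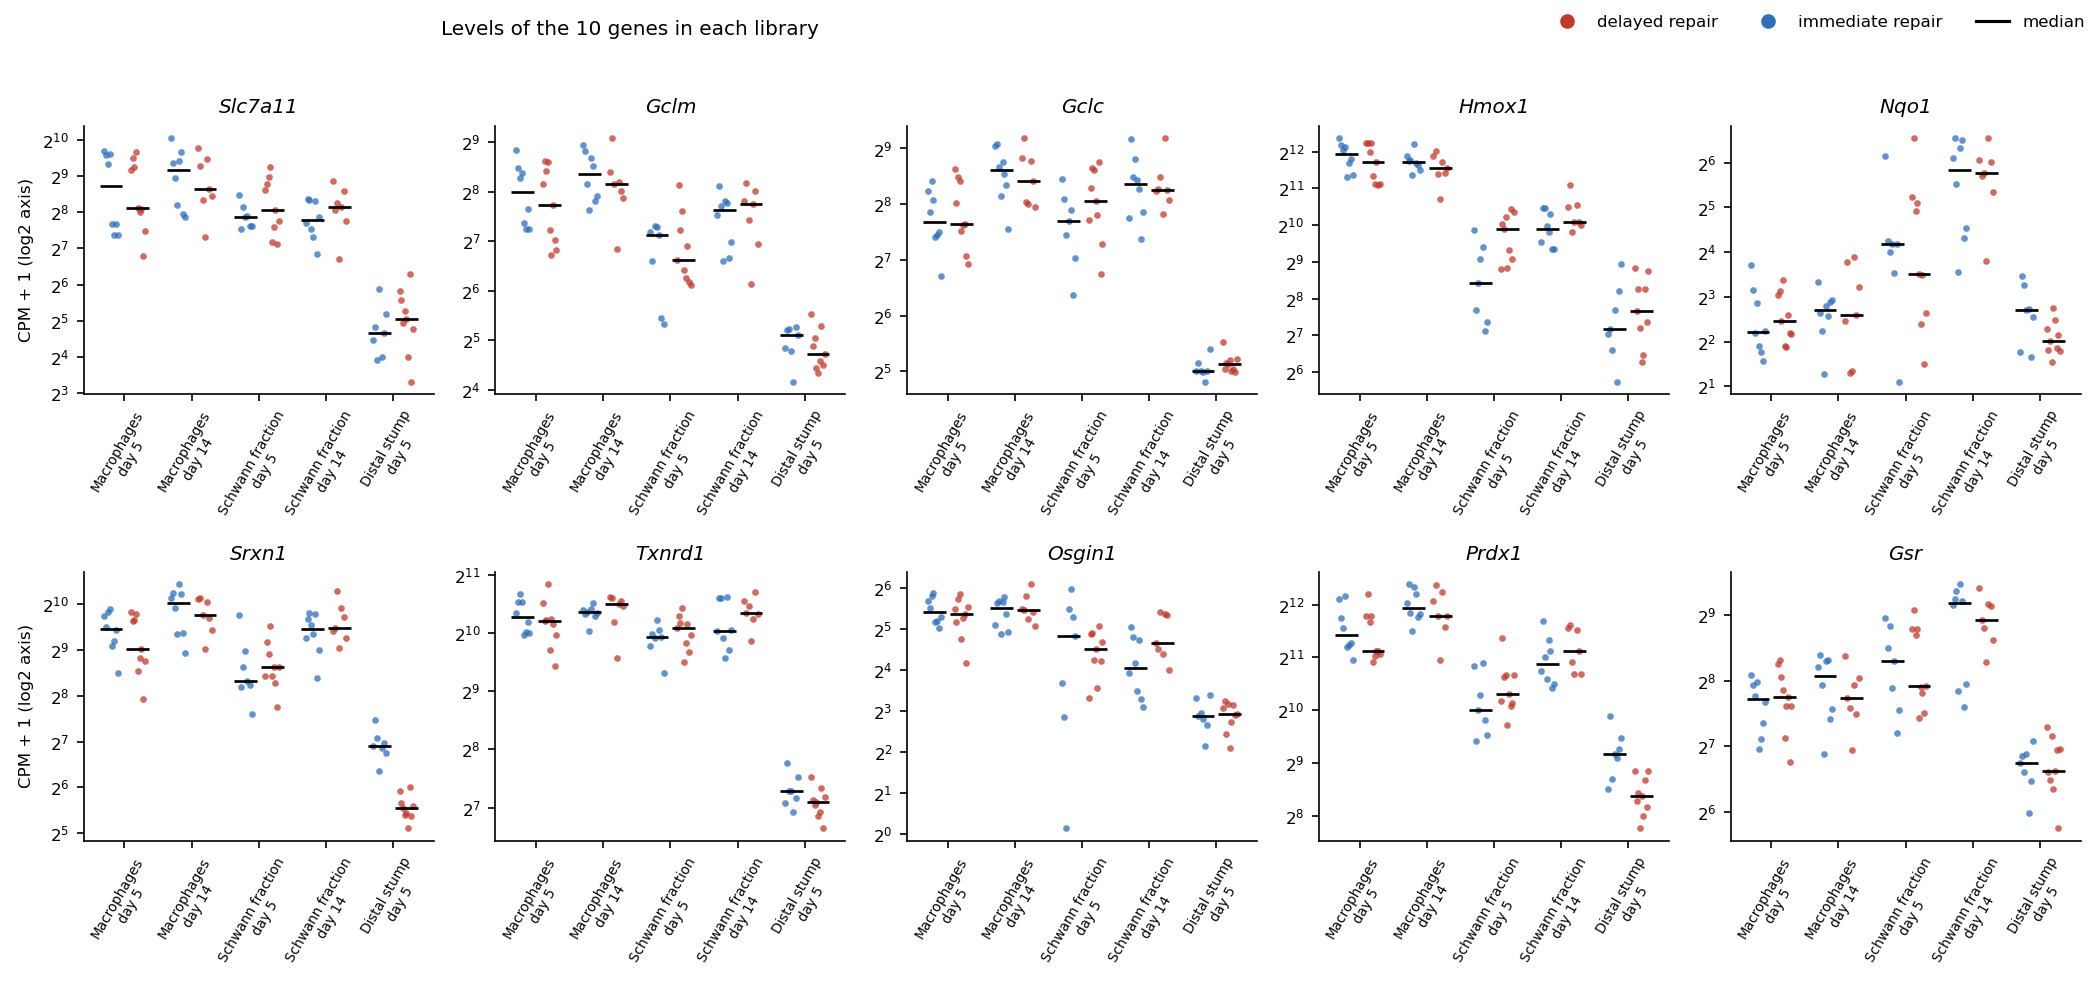
CPM + 1 on a log2 axis of the 10 genes in each of the 79 libraries, by cell or tissue type and day, with delayed repair in red, immediate repair in blue and medians as lines. Hmox1 lies highest in macrophages, and in the stump the delayed and immediate libraries separate for Srxn1.

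Delayed against immediate repair was the question of the study. In the distal stump at day 5, Srxn1 and Prdx1 were lower after delayed repair, by 1.35 and 0.78 on the log2 scale, and the other 7 genes tested did not pass the threshold. Srxn1 was at 81.4, 118.3 and 175.6 CPM (lowest, median and highest) in the 7 immediate libraries and at 33.3, 46.0 and 63.8 CPM in the 9 delayed libraries. Every delayed library was below every immediate one. The log2 fold change was -1.35 (SE 0.143, edgeR adjusted p = 7.07e-06), and in the order of p-values Srxn1 was number 52 of 12229 genes. Prdx1 was at 364.2, 579.4 and 954.9 CPM in the immediate and 217.4, 333.9 and 463.3 CPM in the delayed libraries. These ranges overlapped, since immediate replicates 1 and 3 were within the delayed range. Its log2 fold change was -0.78 (SE 0.195, edgeR adjusted p = 0.00743). Of all genes tested 26.3% passed, 13.5% as lower, and 4.44% had ranges without overlap, against 2 of 9 members that passed, both lower, and 1 without overlap. The median log2 fold change was -0.00 over the 9 genes and 0.02 over all genes. With each of the 16 libraries left out in turn, the same 2 genes passed, at -1.43 to -1.25 for Srxn1 and -0.88 to -0.64 for Prdx1.

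The remaining stump values did not separate by repair timing. Hmox1 spread from 52.4 to 492.4 CPM (median 142.6) after immediate and from 76.7 to 452.7 CPM (median 200.8) after delayed repair, a difference of 0.28 on the log2 scale (SE 0.439, edgeR adjusted p = 0.679). Each group spanned several-fold. Erythroid marker transcripts summed to a median of 72.7 CPM (12.4 to 1819) after delayed and 72.8 CPM (13.4 to 253.6) after immediate repair. Slc7a11 had a log2 fold change of 0.40 (SE 0.368), Txnrd1 of -0.19, Gclm of -0.09, Gclc of 0.12, Gsr of 0.07 and Osgin1 of -0.00. Nqo1, at 1.92 to 10.1 CPM, reached the minimum of 5 CPM in fewer than the 6 libraries required and was not tested.

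Other genes of the pathway were read from 7 lists, whose counts stand beside the 26.3% of all genes that passed in this comparison. Gstp1, a glutathione transferase, had medians of 14.8 CPM after delayed and 57.8 CPM after immediate repair and a log2 fold change of -1.88 (edgeR adjusted p = 3.84e-07). Of 13 glutathione genes tested 2 fell, Gstp1 and Gpx4 (-0.48), the peroxidase of lipid hydroperoxides, and 1 rose, the glutamyltransferase Ggt5 (1.01). Of 6 NADPH-supplying genes 2 fell, malic enzyme Me1 (-1.08) and Taldo1 (-0.49), and of 17 heme and iron genes the ferrireductase Steap3 fell (-1.05) and the transferrin receptor Tfrc rose (0.46). Among 9 regulators of NRF2, Sqstm1, which binds KEAP1, fell by 0.55 and Bach1 rose by 0.30. The serine synthesis genes Psat1 (medians of 23.9 CPM after delayed and 46.9 CPM after immediate repair) and Phgdh (-0.58) were the 2 of 6 ATF4 target list genes that fell, while 0 of 11 thioredoxin genes passed. The superoxide list had 2 of 7 genes higher, Cybb (0.65), the phagocyte oxidase, and Sod3 (0.53).

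Cell type markers moved in the same stump libraries. The 8 Schwann cell markers all fell with delay, S100b by 4.86 and Sox10 by 2.03 on the log2 scale, and their median was -2.74. Their summed level was 79.4 to 635.7 CPM after delayed and 984.6 to 2406 CPM after immediate repair. Macrophage markers summed to a median of 2381 CPM after delayed and 1355 CPM after immediate repair, and 2 of 8 passed as higher, Emr1 (0.84) and Csf1r (0.64). Endothelial markers summed to 820.7 to 1238 CPM after delayed and 550.3 to 753.9 CPM after immediate repair, without overlap, and 4 of 5 passed as higher. The 6 dissociation genes summed to 280.8 to 620.4 CPM and 675.4 to 889.0 CPM, also without overlap, with Jun (-0.77) and Atf3 (-1.86) lower. Dendritic markers summed to medians of 957.3 and 563.6 CPM, with 3 of 7 tested passing as higher, and fibroblast markers to medians of 39963 and 31745 CPM, with 0 of 6 passing. With group means removed (n = 16), Srxn1 and the Schwann cell marker score had a Pearson r of 0.48 (Spearman rho 0.46, permutation adjusted p = 0.391 over 100 correlations with marker scores), and r was 0.69 without the 2 libraries farthest from the median score. For Prdx1 the r was 0.02. The part of the markers in the fall of Srxn1 and Prdx1 was not tested further.

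**Figure D2:**
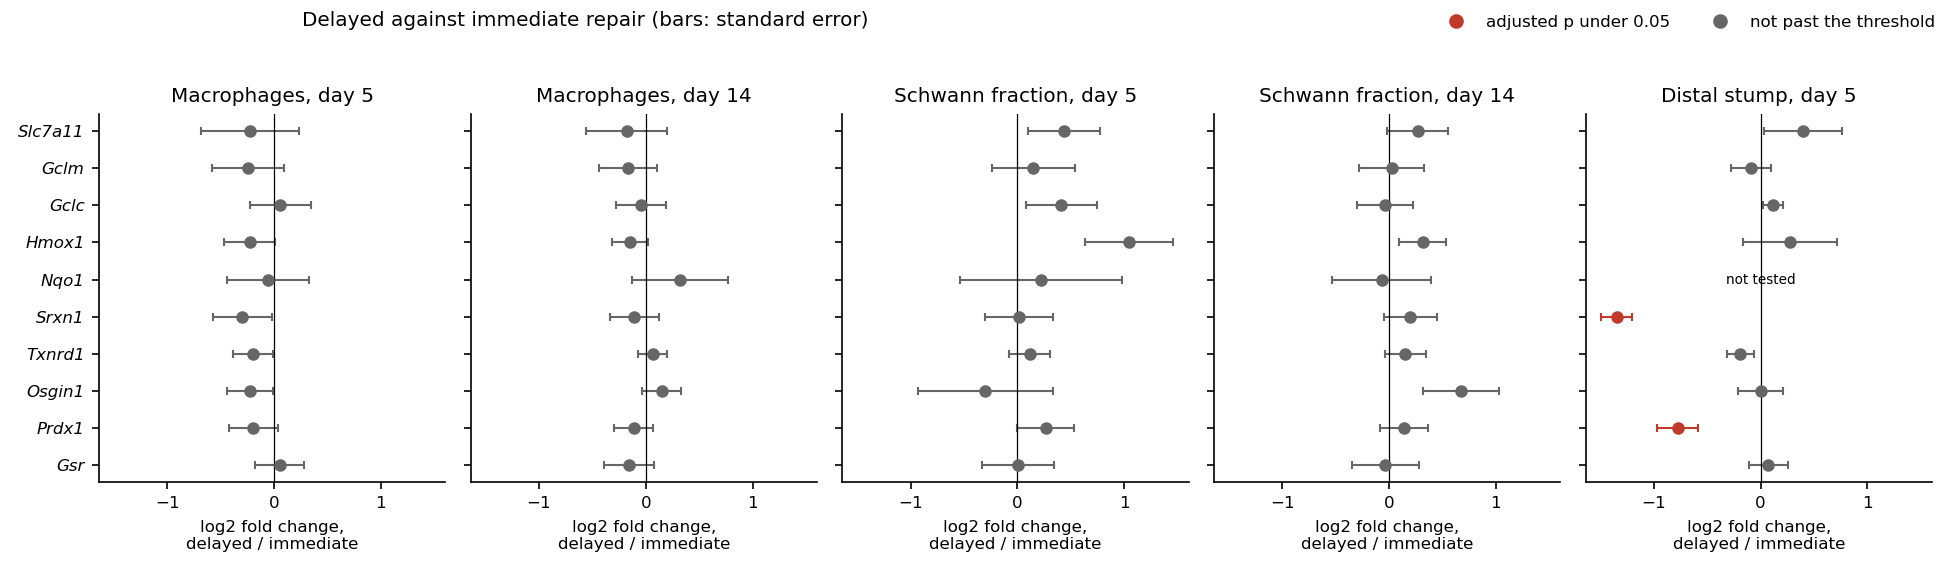
Log2 fold change of delayed over immediate repair for the 10 genes, by tissue and collection day, with bars of 1 standard error and red for an edgeR adjusted p under 0.05. Red marks Srxn1 (-1.35) and Prdx1 (-0.78) in the distal stump, and Nqo1 was not tested there.

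In sorted macrophages delay moved none of the 10 genes past the threshold on either day. At day 5, Hmox1 was at 2542, 3897 and 5315 CPM after immediate and at 2163, 3340 and 4851 CPM after delayed repair (log2 fold change -0.23, SE 0.236, edgeR adjusted p = 0.975). Srxn1, at 363.5, 708.6 and 954.9 against 243.6, 518.2 and 914.5 CPM, had the log2 fold change farthest from 0, -0.30 (SE 0.276). The ranges overlapped almost wholly. At day 5, 0 members passed and 0 had an unadjusted p under 0.05, with 0.0357% of all genes called, 435 genes at an unadjusted p under 0.05 and 17 called by DESeq2. At day 14, 0% of genes were called, with 190 at an unadjusted p under 0.05 and 0 by DESeq2. Again 0 members had an unadjusted p under 0.05. They ranged from -0.18 (Slc7a11) to 0.32 (Nqo1, SE 0.448), and their median was -0.11 against 0.00 for all genes.

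The Schwann cell fraction gave no call either, and Hmox1 came nearest. At day 5 it was at 139.0, 339.9 and 925.0 CPM after immediate and 442.3, 953.3 and 1392 CPM after delayed repair. The delayed libraries lay toward the upper end, yet immediate replicates 1, 4 and 5 were within their range. The log2 fold change was 1.05 (SE 0.411, edgeR adjusted p = 0.884), and 0% of genes were called (505 at an unadjusted p under 0.05, 14 by DESeq2). Hmox1 was the 1 member with an unadjusted p under 0.05. Slc7a11 (0.44) and Gclc (0.41) followed, 9 of 10 members were above 0, and Osgin1 was at -0.30 (SE 0.633). In these libraries the 8 macrophage markers summed to 227.8 to 5201 CPM (median 1582) after delayed and 119.2 to 1828 CPM (median 487.5) after immediate repair, with 7 of 8 log2 fold changes above 0 and none passing. The Schwann cell markers summed to medians of 88.6 and 452.9 CPM. The part of these markers in the Hmox1 value was not tested. At day 14, 0% of genes were called (373 at an unadjusted p under 0.05, 3 by DESeq2), Hmox1 was at 0.32 (SE 0.220) and Osgin1 at 0.67 (SE 0.353, edgeR adjusted p = 0.998).

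A change of the delay effect from day 5 to day 14 was fitted as an interaction of repair timing and day. It passed for 0 of the 10 genes in macrophages, where 0.0223% of all genes passed (2 of 8949, with 323 at an unadjusted p under 0.05 and 9 by DESeq2). The members' differences ran from -0.21 (Gsr) to 0.39 (Nqo1). In the Schwann cell fraction 0% passed (524 at an unadjusted p under 0.05, 9 by DESeq2). There the differences ran from -0.75 for Hmox1 (SE 0.482) to 0.94 for Osgin1.

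Between day 5 and day 14 none of the 10 genes passed in either cell type or repair group, although 11.3% of all genes passed in immediate and 6.41% in delayed macrophages, and 3.81% and 8.09% in the Schwann cell fraction. The nearest in macrophages was Gclc. It had medians of 205.0 CPM at day 5 and 389.1 CPM at day 14 after immediate repair, with overlapping ranges (log2 fold change 0.61, SE 0.251, edgeR adjusted p = 0.122), and 0.51 after delayed repair (adjusted p = 0.322). Hmox1 was at -0.34 (SE 0.174) and -0.26. At an unadjusted p under 0.05 there was 1 member in immediate macrophages, 0 in delayed ones and 2 in each group of the Schwann cell fraction, and DESeq2 called 0, 0, 1 and 1. Gclc passed in the immediate group in 3 alternatives, with library size scaling (0.80, adjusted p = 0.0236), with sex as a covariate (0.67, adjusted p = 0.0308) and with the replicate number as a block (0.65, adjusted p = 0.0164). In the same macrophage libraries the dendritic marker sum was 955.8 to 3346 CPM at day 5 and 7236 to 13521 CPM at day 14 after immediate repair, and 1561 to 4308 CPM and 6165 to 16281 CPM after delayed repair, without overlap between the days, and 3 of 5 markers tested passed as higher in each. Fibroblast markers summed to medians of 18.9 and 78.2 CPM after immediate and 16.2 and 67.0 CPM after delayed repair, with 0 of 4 passing. Their part in the macrophage values by day, including those of the pathway genes, was not tested.

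In the fraction sorted as Schwann cells fitted log2 fold changes from day 5 to day 14 were above 0 for 8 members after immediate repair (median 0.48, against 0.043 over all genes) and for 9 after delayed repair (0.35, against 0.027). Hmox1 after immediate repair went from a median of 339.9 to 950.1 CPM (log2 fold change 1.06, SE 0.386, edgeR adjusted p = 0.136), and DESeq2 called it (1.05, adjusted p = 0.0426). Srxn1 after delayed repair went from 392.9 to 709.3 CPM (0.72, SE 0.263, edgeR adjusted p = 0.0953) and passed with DESeq2 (adjusted p = 0.0421), with library size scaling (0.93, adjusted p = 0.0228) and without day 5 replicate 4. Nqo1 was at 1.18 (SE 0.639) after immediate and 0.88 after delayed repair. Marker sums moved with day in the same libraries. The 8 macrophage markers summed to medians of 487.5 CPM at day 5 and 931.3 CPM at day 14 after immediate repair, and 1582 and 794.8 CPM after delayed repair. Schwann cell markers went from 452.9 to 589.1 CPM and from 88.6 to 1370 CPM, with 0 and 3 of 8 passing as higher. Fibroblast markers went from 1591 to 7110 CPM and from 602.6 to 5079 CPM, with 1 gene passing in each group, and the 6 dissociation genes from 6347 to 4342 CPM and from 7174 to 3898 CPM, with 0 and 2 passing as lower. Their part in these values was not tested.

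Few pathway genes outside the 10 passed by day, at most 3 of any list, the glutathione list of 11 genes in delayed macrophages, beside 3.81% to 11.3% of all genes in the 4 comparisons. In macrophages the glutaredoxin Glrx fell (-0.93 after immediate, -0.88 after delayed repair), as did the stress gene Ddit4 (-1.85 and -1.26), while the glutathione transferase Gstm1 (0.49 and 0.70) and Ncoa4, the receptor for ferritin turnover (0.66 and 0.71), rose. After delayed repair Gpx3 (1.25), catalase Cat (0.70) and Cul3, a scaffold of the KEAP1 ligase (1.60), rose as well. In the Schwann cell fraction Ddit4 fell (-1.78 and -1.15) and the pentose phosphate gene Taldo1 rose (0.68 and 0.54). G6pdx, which supplies NADPH at the head of that pathway, rose after immediate repair (0.97), and Cul3 (1.302) and Spic (1.05), a factor of red pulp macrophages, rose after delayed repair.

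Between the cell types, most of the 10 genes were lower in the Schwann cell fraction than in macrophages. The fit held repair timing as a covariate and treated the libraries of one animal as independent. In it 8 of 10 passed at day 5, 7 as lower, where 65.3% of all genes passed and 29.7% as lower. At day 14 all 10 passed, 8 as lower, against 64.7% and 27.6% of all genes. The median of the 10 log2 fold changes was -0.89 at day 5 and -0.90 at day 14, against 0.05 and 0.11 over all genes. The cDNA input to library preparation differed between the sorted cell types, so cell type and preparation cannot be told apart.

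Hmox1 differed most among the lower genes. It was at 139.0 to 1392 CPM in the Schwann cell fraction and 2163 to 5315 CPM in macrophages at day 5, without overlap, as were 14.9% of all genes. Its log2 fold change was -2.75 (SE 0.292, edgeR adjusted p = 5.14e-10), and -1.89 at day 14 (SE 0.154, adjusted p = 3.82e-12), when its ranges overlapped and those of 17% of all genes did not. Prdx1 was at -1.43 (SE 0.195) and -1.22 (SE 0.154), Gclm at -1.30 and -1.12, and Osgin1 at -1.09 and -1.32. Slc7a11 was at -0.90 (adjusted p = 0.0136) at day 5 and -1.40 at day 14, and at day 5 it no longer passed without the 4 Schwann cell libraries over 150 CPM of Emr1, the F4/80 gene (-0.74, adjusted p = 0.0668). Srxn1 (-0.88 and -0.69) and Txnrd1 (-0.50 and -0.45) passed on both days, and Gclc at day 14 (-0.54). At day 14 the calls of these 3 depended on scaling. With library size scaling only, which moved the median of all genes to 0.48, Srxn1 was at -0.33 (adjusted p = 0.0658), Gclc at -0.18 and Txnrd1 at -0.09.

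Nqo1 and Gsr lay on the other side. Nqo1 was at 1.41 to 13.8 CPM in all macrophage libraries of day 14 and 10.7 to 93.2 CPM in the Schwann cell fraction, and only libraries near the low end of the fraction were within the macrophage range. The log2 fold change was 2.83 (SE 0.358, edgeR adjusted p = 3.71e-08), and 1.92 at day 5 (SE 0.445, adjusted p = 0.000307). Gsr was at 0.70 (adjusted p = 0.00353) at day 14 and 0.37 (adjusted p = 0.125) at day 5. In the lists, 15 of 17 heme and iron genes were lower in the fraction at day 5, among them the iron transporter Slc11a2 (-2.56) and the scavenger receptor Lrp1 (-2.55), and Ncoa4 was higher (1.53). Of the NRF2 regulators 7 of 9 were lower, including Nfe2l2 (-0.77) and Mafk (-1.60), and Keap1 was higher (0.73). Of 8 ATF4 target list genes 4 were higher and 0 lower at day 5, beside 35.6% of all genes called higher and 29.7% lower. Phgdh was at 3.68, Chac1 at 3.17 and Ddit4 at 2.44.

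Males and females differed in macrophages at day 5, and this comparison was added after the data were seen. All 10 genes were higher in males, by 0.66 to 1.97 on the log2 scale, where 25.1% of all genes passed and 11.3% as higher. Slc7a11 was at 570.0, 734.2 and 828.9 CPM in 8 males and 110.5, 201.1 and 273.7 CPM in 9 females. The lowest male was above the highest female by more than the whole female range. Its log2 fold change was 1.97 (SE 0.159, edgeR adjusted p = 1.55e-07), number 5 of 8409 genes by p-value. Hmox1 was at 4050, 4718 and 5315 CPM in males and 2163, 2570 and 3554 CPM in females. These ranges did not meet, with a log2 fold change of 0.91 (SE 0.115, adjusted p = 3.34e-05). Gclm was at 283.6, 350.4 and 455.8 against 104.4, 150.8 and 212.0 CPM (1.38, SE 0.135, adjusted p = 2.29e-06). Prdx1 was at 3009, 3514 and 4674 against 1922, 2235 and 2488 CPM (0.92, SE 0.103, adjusted p = 1.06e-05). Both genes were separate by sex as well.

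The other 6 genes followed with smaller or noisier differences. Gclc (1.09), Srxn1 (1.02) and Gsr (0.85) also had ranges without overlap, which makes 7 of 10 members against 3.7% of all genes. Nqo1 (1.40, adjusted p = 0.000424), Osgin1 (0.68, adjusted p = 0.00376) and Txnrd1 (0.66, adjusted p = 0.000643) overlapped. Nqo1 was near the minimum of 5 CPM, at 3.57 to 12.0 CPM in males and 1.96 to 5.08 CPM in females. It entered the comparison mostly through the male libraries, and its place among the 10 is to be read with that limit. All 10 passed in each of the 17 fits that left out 1 library. Within immediate repair alone 9 passed and Srxn1 did not (0.75, adjusted p = 0.0596), and within delayed repair alone 9 passed and Osgin1 did not (0.67, adjusted p = 0.113). For Hmox1 the medians of males and females were 4804 and 2230 CPM after delayed and 4552 and 2985 CPM after immediate repair. For Slc7a11 they were 658.8 and 257.3 CPM, and 767.5 and 183.0 CPM.

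**Figure D3:**
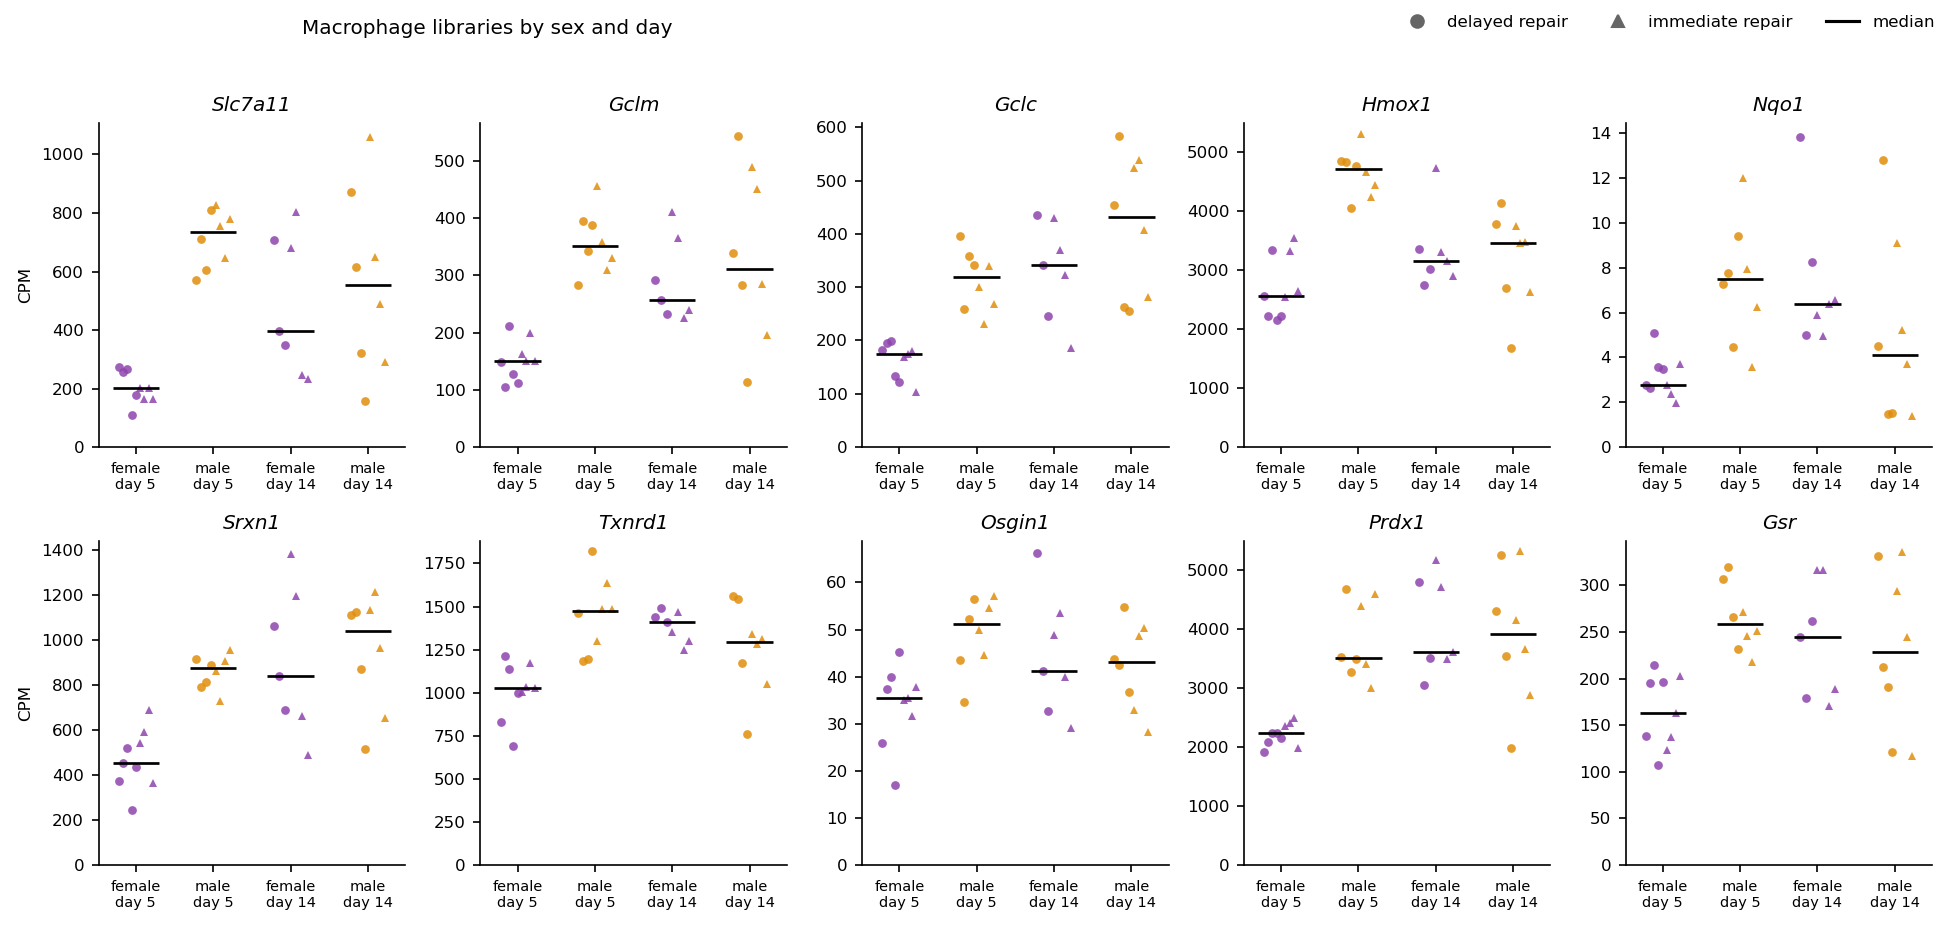
CPM of the 10 genes in macrophage libraries by sex and day, with circles for delayed and triangles for immediate repair and lines for medians. At day 5 the male libraries of Slc7a11 (570.0 to 828.9 CPM) lie above all female libraries (110.5 to 273.7 CPM), and at day 14 the sexes overlap.

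Other pathway genes did not share one direction by sex. Of 17 heme and iron genes 6 were higher and 3 lower in males at day 5, with ferritin heavy chain Fth1 at 0.76 (medians 22426 and 14733 CPM), Slc11a2 at 0.57 and the heme transporter Slc48a1 at 0.49. Of 9 NRF2 regulators 2 were higher, Sqstm1 (0.84) and Mafg (0.48), and Bach1 was lower (-0.42). The glutathione list had 3 higher, Slc3a2 (0.59), the partner chain of Slc7a11, Gstm1 (0.54) and Glrx (0.34), and 2 lower of 11 tested. The thioredoxin list had 2 higher, Prdx5 (0.67) and Prdx6 (0.54), and 3 lower of 11, among them Txnrd2 (-0.66), the mitochondrial reductase. Of 5 NADPH genes 2 were higher, Pgd (0.58) and Taldo1 (0.44), and Idh1 was lower (-0.42). Sod2 (0.98) and Cybb (0.31) were higher and Ncf1 (-0.84) lower, and of 6 ATF4 list genes Asns (1.28) was higher.

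Further measures moved with sex in these libraries. The macrophage marker sum did not separate the sexes, at 12395 to 15483 CPM (median 13647) in males and 11614 to 15445 CPM (median 13531) in females. Of these 8 markers 1 was higher in males, Cd14 (0.40), and 3 were lower, Mertk (-1.20), Fcgr3 (-0.48) and C1qa (-0.43). Of 6 genes that tissue dissociation is known to raise, Atf3 was higher (0.59), and Fos (-1.27) and Egr1 (-1.57) were lower in males. Dendritic markers summed to medians of 1759 CPM in males and 2710 CPM in females, endothelial markers to 32.8 and 65.4 CPM and fibroblast markers to 8.73 and 32.5 CPM, all with overlapping ranges, and of the genes tested in these lists 1 passed, the dendritic gene Xcr1, higher in males (0.95). With library size scaling only, 18.4% of all calls were higher in males, against 44.96% with TMM scaling. Their part in the difference of the 10 genes was not tested.

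At day 14 the sexes overlapped for every member in macrophages. Hmox1 had medians of 3468 CPM in males and 3156 CPM in females, and Slc7a11 of 552.3 and 398.1 CPM. With edgeR 0 members passed, from -0.50 (Nqo1) to 0.35 (Gclc), where 0.0466% of all genes passed (4 genes, with 264 at an unadjusted p under 0.05 and 10 by DESeq2). A change of the sex difference with time was tested as an interaction of sex and day over 32 libraries. The male minus female difference was lower at day 14 for all 10 genes, and 5 passed, where 1.52% of all genes passed and 0.726% as lower. These were Nqo1 (-1.90, adjusted p = 0.0496), Slc7a11 (-1.74, adjusted p = 0.0364), Prdx1 (-0.94, adjusted p = 0.0341), Hmox1 (-0.91, adjusted p = 0.0341) and Txnrd1 (-0.77, adjusted p = 0.0347).

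The interaction calls lay near the threshold. DESeq2 called 7 members, library size scaling 4, filterByExpr 2 and no filter 0, and leaving out single libraries gave 0 to 8. The log2 differences moved less, with Slc7a11 at -1.76 (edgeR adjusted p = 0.0596) without a filter and at -1.95 to -1.57 with single libraries left out. No member passed without delayed replicates 1 or 9 or immediate replicate 8 of day 5, without delayed replicates 3 or 6 of day 14, and without immediate replicates 4 or 5 of day 14. At day 14, replicate 4, a male, was the lowest library for 7 of 10 members in the delayed and for 7 of 10 in the immediate group. Without the delayed one, 4 members passed.

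In the Schwann cell fraction at day 5 the same direction by sex was seen for most genes. Of the 10, 6 were higher in males, where 7.02% of all genes passed and 5.36% as higher. The direction of all calls turned with scaling, 76.4% being higher in males with TMM scaling and 36.4% with library size scaling only, under which 5 members still passed, all as higher. Gsr was at 237.5, 442.9 and 539.0 CPM in males and 146.7, 206.2 and 314.1 CPM in females (log2 fold change 1.20, SE 0.180, edgeR adjusted p = 0.00189). Nqo1 was at 15.0, 31.3 and 92.4 against 1.15, 7.72 and 17.3 CPM (2.48, SE 0.545, adjusted p = 0.0139). In both genes most males were above most females, and the ranges overlapped in part. Slc7a11 (1.10), Gclm (1.20), Srxn1 (0.98) and Txnrd1 (0.52) also passed, the last with an adjusted p of 0.0415. Txnrd1 lost its call with library size scaling (0.138), without a filter (0.0603) and in 11 of the 16 fits that left out 1 library. Gclc (0.78, adjusted p = 0.123; with DESeq2 0.77, adjusted p = 0.0498), Prdx1 (0.50), Hmox1 (0.48) and Osgin1 (-0.48) did not pass with edgeR. Leaving out single libraries gave 5 to 7 members, delayed libraries alone 4, without Srxn1 and Txnrd1, and immediate libraries alone 0 of any gene.

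The fraction's make-up also moved with sex at day 5. Macrophage markers summed to a median of 541 CPM in males and 1484 CPM in females, with 8 of 8 log2 fold changes below 0 and none passing. Schwann cell markers summed to 91.0 and 270 CPM, fibroblast markers to 283.6 and 1751 CPM, and the 6 dissociation genes to 7929 and 4820 CPM. Their part was not tested. At day 14 the members ran from -0.30 (Nqo1) to 0.28 (Osgin1) with 0 passing, where 0.0391% of genes passed (4 genes, 258 at an unadjusted p under 0.05, 6 by DESeq2). In the stump the 9 tested ran from -0.21 (Hmox1) to 0.34 (Slc7a11) with 0 passing, where 0.0654% passed (8 genes, 1780 at an unadjusted p under 0.05, 90 by DESeq2). The interaction of sex and day in the fraction passed for 0 members in edgeR and 2 in DESeq2, Nqo1 and Gsr, where 0.165% of genes passed (18 genes, 1634 at an unadjusted p under 0.05, 417 by DESeq2).

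The levels of the 10 genes varied together from library to library. Because the sexes stood apart at day 5, correlations of log2(CPM + 1) after TMM scaling are given with group means removed and again with group and sex means removed. In the 32 macrophage libraries all 45 pairs passed with group means removed, at a median Pearson r of 0.80 (0.39 to 0.94; permutation adjusted p under 0.05 in each). With sex means removed as well, 39 of 45 passed at a median r of 0.67, and 0.617% of pairs among all genes reached that value. Gclm and Hmox1 were the closest pair (r 0.94, Spearman rho 0.93, permutation adjusted p = 2.70e-05; 0.93 without the 2 farthest libraries; 0.87 with sex removed). Within single strata at day 14 the median r was 0.79 in 7 females and 0.86 in 8 males. At day 5 it was 0.48 in 9 females and 0.06 in 8 males.

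Over all libraries of a type, the median r was lower in the Schwann cell fraction and the stump, but it was not lower at day 5 alone. With group and sex means removed, the day 5 medians were 0.38 in macrophages, 0.40 in the fraction and 0.45 in the stump. At day 14 they were 0.80 in macrophages and 0.64 in the fraction, and these differences were not tested. In the 31 libraries of the Schwann cell fraction 36 of 45 pairs passed with group means removed (median r 0.66) and 37 with sex removed (0.54, a value reached by 2.04% of all gene pairs). The 9 pairs of Osgin1 were the ones that did not pass with group means removed. One library, immediate replicate 3 of day 5, held Osgin1 at 0.105 CPM, where the others of its group reached 61.1 CPM. In the 16 stump libraries 18 of 45 pairs passed (median r 0.45, reached by 13.1% of all gene pairs), led by Txnrd1 and Gsr (0.79), and Nqo1 had an r of -0.39 with Hmox1 and -0.41 with Osgin1 there, which did not pass. In the Schwann cell fraction and the stump, where scores were computed, 0 of 100 correlations of a member with the score of a macrophage, Schwann cell, dendritic, fibroblast or erythroid marker list passed a permutation test after adjustment, and 2 passed with CPM scaled by library size only, both in the Schwann cell fraction (Osgin1 with the macrophage score, r 0.57, and Hmox1 with the dendritic score, r -0.56).

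**Figure D4:**
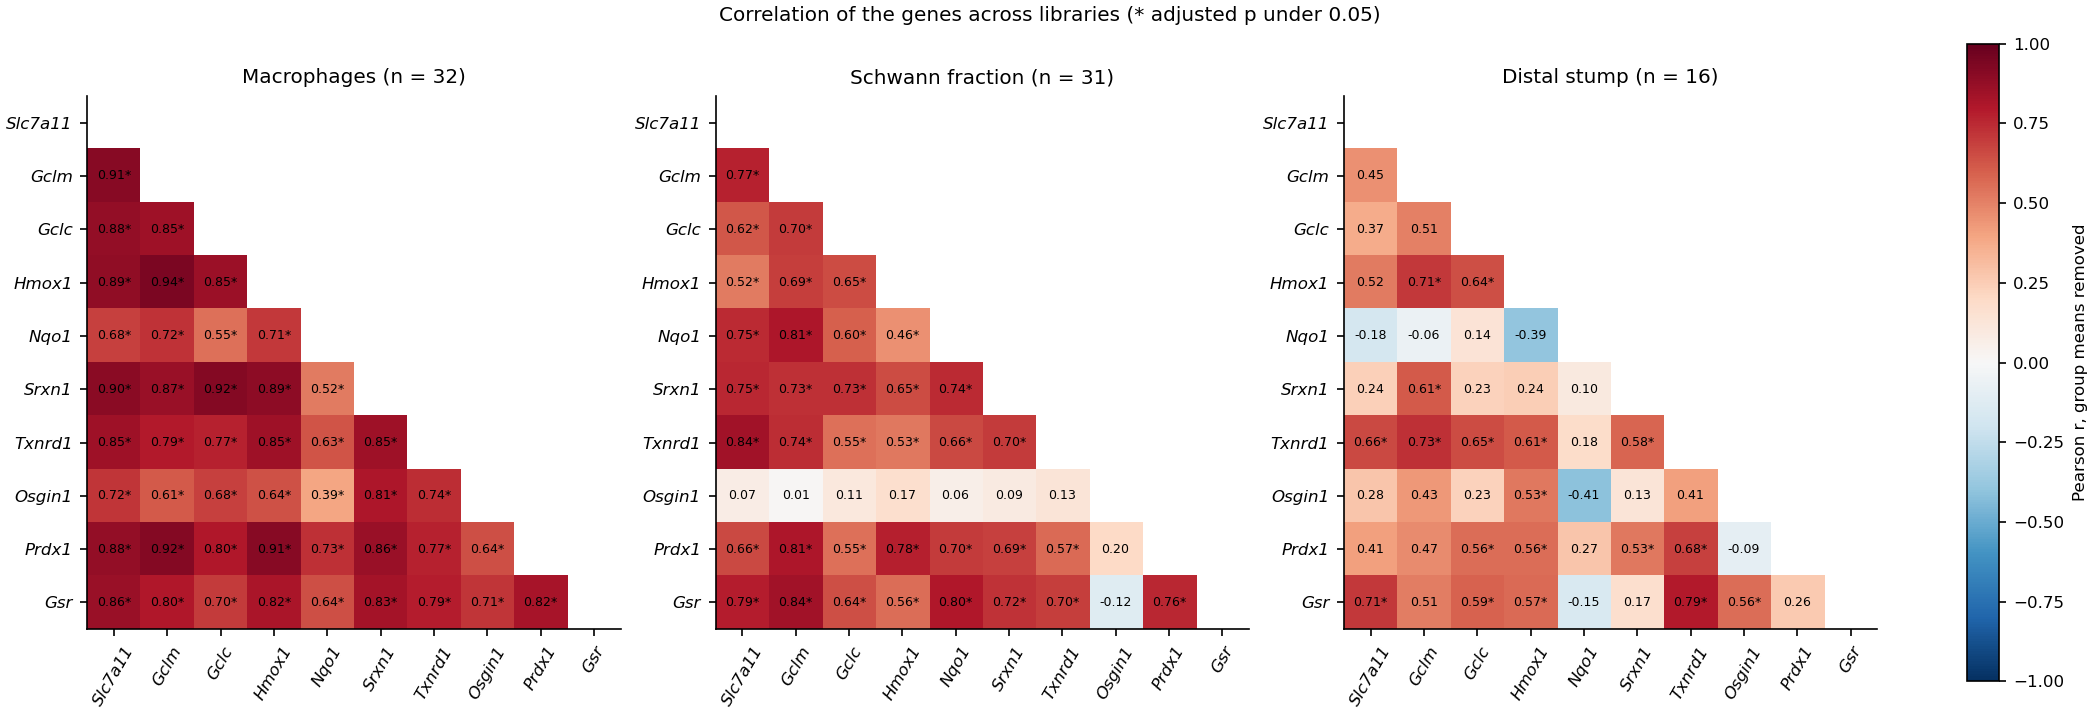
Pearson r between the 10 genes across libraries with group means removed, in macrophages (n = 32), the Schwann cell fraction (n = 31) and the distal stump (n = 16), with stars for a permutation adjusted p under 0.05. All 45 macrophage pairs are starred, 36 in the Schwann cell fraction and 18 in the stump.

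Levels also went with the animal. Across 31 animals with group means removed, 9 of 10 genes in macrophages were correlated with the same gene in the Schwann cell fraction of that animal. Gclm had the highest r, 0.83 (Spearman rho 0.76, permutation adjusted p = 2.00e-05), followed by Gsr (0.80), Slc7a11 (0.74), Prdx1 (0.74), Srxn1 (0.73) and Txnrd1 (0.72). Hmox1 was at 0.39 (rho 0.39, permutation adjusted p = 0.0338) and Osgin1 at 0.03. With sex means removed 6 genes passed, Gclm (0.72), Prdx1 (0.70), Gsr (0.67), Txnrd1 (0.58), Srxn1 (0.57) and Slc7a11 (0.55), and Gclc (0.29), Nqo1 (0.36), Hmox1 (0.26) and Osgin1 (0.31) did not. The members' median was then 0.56, a value reached by 3.26% of 8499 genes, whose own median was 0.096. The 2 cell types of an animal share the operation and the sort, and these cannot be told apart.

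**Figure D5:**
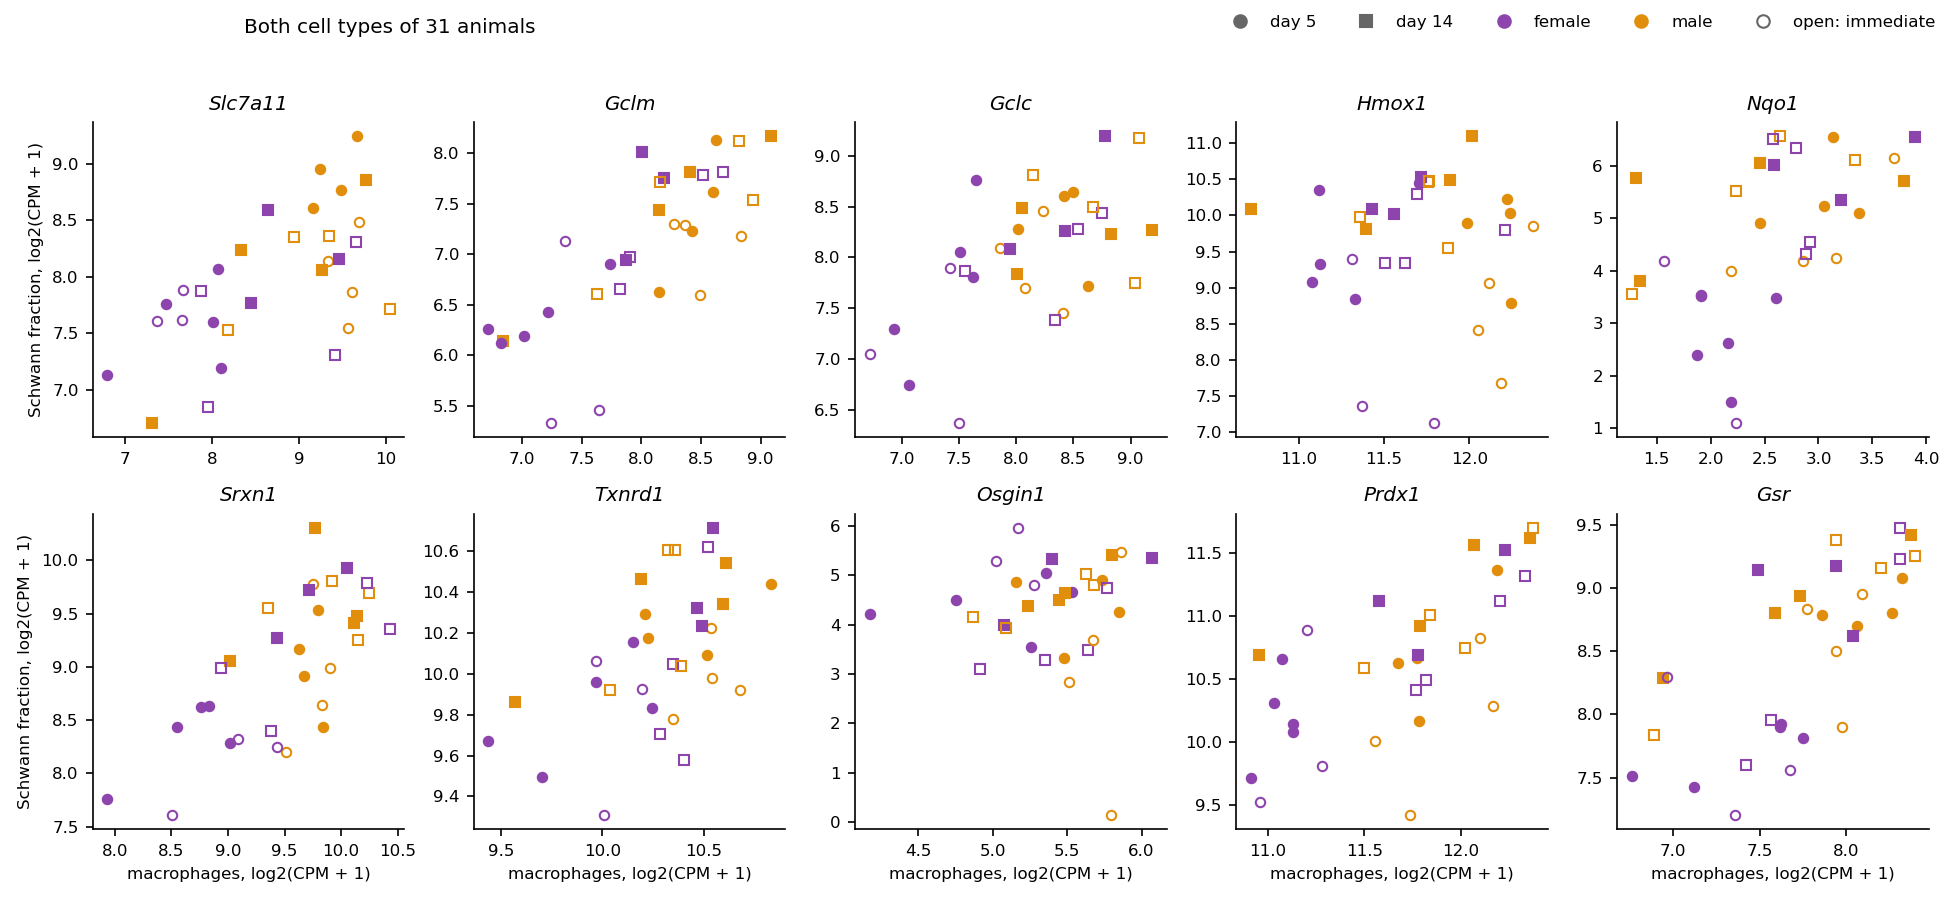
Log2(CPM + 1) of each gene in macrophages (horizontal axis) and in the Schwann cell fraction (vertical axis) of the same 31 animals, by day, sex and repair timing. Animals high in one cell type are high in the other for Gclm and Gsr, and Osgin1 shows no such order.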

How the data were processed

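RNA was measured in 79 libraries of sorted macrophages, sorted Schwann cells and distal stumps from 32 mice. The values are estimated counts of each gene that the authors deposited without normalization, in 1 table for each sample type, and 0 columns were without a matching sample. The submitters' processing notes name cutadapt 1.8, TopHat2 2.1.1, Cufflinks 2.2.1, Cuffnorm and build mm10, and the methods add that rRNA reads of the stump were removed. Which program estimated these counts is not given in the sources used here. Values that were not whole numbers were rounded. Levels are CPM of each library's total count, so a given CPM rests on the fewest counts in the stump, the shallowest sample type.

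A gene entered a comparison with 5 CPM or more in 6 or more of its libraries and was tested with edgeR 4.0.16 (R 4.3.3), TMM scaling and the quasi-likelihood test, at a Benjamini-Hochberg adjusted p under 0.05 over all genes tested. The study used cuffdiff, which needs aligned reads. The standard error of a log2 fold change is its size over the root of the F statistic. Cell types were compared with repair timing as a covariate. The labels give both sorted libraries of an animal the same mouse, but the fit treated them as independent. The animal as a block was an alternative. Correlations used log2(TMM-scaled CPM + 1), Pearson's r and Spearman's rho, and 100000 permutations, which allow a p of no less than 1e-05. The 10 members were named in every comparison. From 7 pathway lists of 72 genes (NRF2 regulators, glutathione, thioredoxin, NADPH supply, heme and iron, ATF4 response, superoxide), up to 3 genes with the smallest p among those past the threshold were named, and for Hmox1, Slc7a11 and Gclm the 3 most correlated genes of macrophages. Of the list genes 3 were not in the tables. Members and lists were chosen with earlier results of these data known, and the comparisons by sex were added after the data were seen. Alternatives were DESeq2 1.42.0, scaling by library size, no filter, the filterByExpr filter, a replicate block, a sex covariate, a pseudocount of 0.1, single repair groups and each library left out. The tests were tested on simulated data.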

Additional observations from a re-analysis of the deposited data

Results flagged for a closer look

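In the distal stump after delayed repair, Gclc was at 45.2 CPM in replicate 1, apart from the other 8 libraries, which were at 30.9 to 36.1 CPM. In macrophages of day 14 after delayed repair, Txnrd1 was at 758 CPM in replicate 4, apart from the other 6 at 1169 to 1562 CPM. These are 2 of 100 groups of libraries looked at, and chance alone marks about 1 in 20 groups. The difference between males and females in macrophages was not the same on both days for 5 members in edgeR's test of sex and day. Day 14 minus day 5, the log2 difference was -1.74 for Slc7a11, -0.91 for Hmox1, -1.90 for Nqo1, -0.77 for Txnrd1 and -0.94 for Prdx1, with adjusted p-values of 0.0341 to 0.0496. Leaving out 1 of 7 single libraries removed all of these calls, while the log2 difference of Slc7a11 lay between -1.95 and -1.57 over the fits that each left out 1 library.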

How the results depend on the processing

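Srxn1 and Prdx1 in the distal stump, and the 10 members by sex in macrophages of day 5, passed under DESeq2, library size scaling, filterByExpr, no filter and each library left out. Apart from fits that left out 1 library, of 251 counts of calls 206 stayed within 1.5 times and 45 moved, and of the members' log2 fold changes 453 kept their direction and side of the threshold, 26 lost and 13 gained a call and 6 changed sign. The cause of these changes was not tested, and stump libraries held the fewest counts.

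DESeq2 called 17 genes by repair timing in macrophages at day 5, 14 in the Schwann cell fraction at day 5 and 3 at day 14. By day it called 891 in delayed macrophages, and 950 and 1514 in the immediate and delayed fraction, with 1 member each. For the interaction of repair and day it called 9 genes in each cell type. By sex it called 10 in macrophages of day 14, 1151 in the fraction of day 5 and 90 in the stump, and for sex and day 460 and 417 genes, with 2 members in the fraction. Library size scaling called 1484 genes by day in immediate macrophages, with 1 member, 2 members by day in the delayed fraction, 0 genes for repair and day in macrophages, 6 for sex and day in the fraction, and 2 correlations with marker scores. Sex as a covariate called 8 genes by repair timing in macrophages and 1 in the fraction at day 5, and 1 member by day in immediate macrophages. For sex and day in macrophages filterByExpr called 52 genes and 2 members, and no filter 36 genes and 0 members, and in the fraction no filter called 9 genes. Within immediate libraries only, sex called 343 genes in macrophages of day 5, and 0 in macrophages of day 14, in the fraction on both days (0 members) and in the stump. Within delayed libraries only the counts were 710, 0, 222, 0 and 0, in macrophages and then the fraction by day, and the stump.

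Same-numbered libraries of the 2 repair groups shared a number and, by the numbering, a sex, but no animal. The correlations of their deviations were -0.02 to 0.49 and -0.03 to 0.50 in macrophages on day 5 and day 14 (7 of 8 and 6 of 7 over 0.1), -0.04 to 0.29 and -0.24 to 0.14 in the fraction (3 of 7 each) and -0.28 to 0.11 in the stump (1 of 7). With the replicate number as a block, 12 genes were called by repair timing in macrophages at day 5, 197 and 241 by day in the immediate and delayed fraction, and 1 member by day in immediate macrophages. The signs of Osgin1 by repair timing in the fraction at day 5 (0.21) and of Nqo1 at day 14 (0.31) turned with the block. The sign also turned for Nqo1 at day 14 with library size scaling (0.016), and by sex in delayed libraries for Osgin1 in the fraction (0.12 at day 5, -0.20 at day 14) and Hmox1 in the stump (0.36).

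With each library left out, genes called by repair timing were 1 to 3 in macrophages and 0 to 1 in the fraction at day 5, and 2363 to 3347 in the stump. By day they were 764 to 1119 and 370 to 670 in immediate and delayed macrophages, and 222 to 638 and 359 to 1175 in the fraction (0 to 1 member when delayed). By sex they were 1708 to 2203 in macrophages and 341 to 815 in the fraction at day 5 (5 to 7 members), 4 to 5 and 3 to 5 at day 14, and 8 to 12 in the stump. For sex and day they were 10 to 497 in macrophages (0 to 8 members) and 1 to 239 in the fraction (0 to 2 members, 2 without day 14 immediate replicate 7 or 8). Single libraries turned the sign of Gclc (-0.084 to 0.19) and Slc7a11 (-0.40 to 0.027) by repair timing in macrophages, Osgin1 (-0.52 to 0.026, without immediate replicate 5) and Nqo1 (-0.22 to 0.11) in the fraction, and Hmox1 (-0.44 to 0.12, without immediate replicate 8) by sex in the stump.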

Other observations

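Over the 32 macrophage libraries with group means removed, the genes most like 3 of the members among 8724 others were looked up, as a description over libraries that share groups and sexes. For Hmox1 these were Gclm (Pearson r 0.94), Alcam (0.92) and Fth1 (0.92). For Slc7a11 they were Gorasp2 (0.96), Elavl1 (0.94) and Alcam (0.93), and for Gclm they were Hmox1 (0.94), Prdx1 (0.92) and Slc7a11 (0.91). With sex means removed as well, they were Gclm (0.87), Alcam (0.86) and Cdv3 (0.85) for Hmox1, Dcaf12 (0.92), Gorasp2 (0.91) and Hgs (0.89) for Slc7a11, and Hmox1 (0.87), Prdx1 (0.83) and Riok3 (0.82) for Gclm.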
